A study of Mus musculus with 24 samples.

Results

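The liver is the main site where amino acids and pyrimidine bases are taken apart, and 44 genes of this breakdown were followed in mouse livers with NASH (nonalcoholic steatohepatitis), in which fat, inflammation and scar tissue build up in the liver. The genes were taken by symbol from a list of enzymes of tyrosine, tryptophan, branched-chain amino acid, sulfur amino acid, glycine, proline, lysine and pyrimidine breakdown, with the phosphoethanolamine lyase Etnppl and the transaminases that feed these routes. This list was chosen with earlier results of these data known, so its counts beside those of all genes are a description. All 44 were among the 14293 genes of the table, and all 44 had at least 0.5 FPKM in at least 8 samples, the floor for testing that 11562 genes passed. The 24 liver samples fell into 3 groups of 8, treated with vutiglabridin (a synthetic relative of the licorice flavonoid glabridin), with semaglutide (which activates the GLP-1 receptor and is used in diabetes and obesity) or with vehicle. Neither the model, diet, sex, age, dose nor treatment length is stated by the labels, and no animal is named for any sample, so spread between replicates, on which every p-value rests, may be technical. In what follows, a liver means a liver sample, which need not be a separate animal.

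Expression was measured by RNA sequencing of whole liver and given by the authors as FPKM, fragment counts scaled by transcript length and library total, so levels can be set side by side between genes. The steps that 1 fragment makes in the low values implied, as rounded numbers, 5990000.0 to 15300000.0 fragments in vutiglabridin, 9310000.0 to 12400000.0 in semaglutide and 11970000.0 to 19800000.0 in vehicle libraries. The semaglutide columns of the table were written in another number format than those of both other groups, so a processing step done separately for that group and the drug cannot be told apart. In whole liver, fewer cells of a type and less RNA per cell cannot be told apart either.

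Amino acid breakdown in hepatocytes begins with the removal of the amino group by transaminases or with the opening of a ring or chain by a dedicated enzyme, and the carbon then reaches the tricarboxylic acid cycle, ketone bodies or glucose. Methionine passes through S-adenosylmethionine, the cell's methyl donor, to homocysteine, which is either methylated back or drained to cysteine. Several of the entry enzymes, such as Tat and Tdo2, are textbook targets of glucocorticoids, glucagon and feeding.

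The 250 bases before the RefSeq start (GRCm38.p6) are shown for 4 genes whose vutiglabridin values did not overlap the vehicle values, as the stretch where promoter elements would lie. They are the windows chr5:123182724-123182973 on the minus strand (Hpd), chr7:84605943-84606192 on the minus strand (Fah), chr1:93134990-93135239 on the plus strand (Agxt) and chr10:75406661-75406910 on the plus strand (Upb1). The Hpd window shares 4 bases with an exon of that gene in GENCODE M21, and the other 3 share none, although those of Fah and Upb1 lie inside a gene span that GENCODE M21 starts farther upstream. Capitals mark matches, on either strand, to the motifs searched.
Hpd: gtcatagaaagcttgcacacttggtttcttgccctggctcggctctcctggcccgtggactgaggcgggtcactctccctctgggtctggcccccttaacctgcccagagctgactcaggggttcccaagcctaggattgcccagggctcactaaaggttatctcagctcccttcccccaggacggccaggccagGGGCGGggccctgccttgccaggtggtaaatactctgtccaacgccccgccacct
Fah: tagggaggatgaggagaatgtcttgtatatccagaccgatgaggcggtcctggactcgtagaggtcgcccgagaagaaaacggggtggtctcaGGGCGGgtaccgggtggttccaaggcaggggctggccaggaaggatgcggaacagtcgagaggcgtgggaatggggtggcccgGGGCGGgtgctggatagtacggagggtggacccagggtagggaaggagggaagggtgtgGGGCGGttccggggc
Agxt: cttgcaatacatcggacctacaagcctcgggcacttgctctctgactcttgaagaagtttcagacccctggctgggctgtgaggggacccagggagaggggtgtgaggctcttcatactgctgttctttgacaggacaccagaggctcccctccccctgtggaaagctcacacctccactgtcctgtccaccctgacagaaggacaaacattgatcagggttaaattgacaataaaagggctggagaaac
Upb1: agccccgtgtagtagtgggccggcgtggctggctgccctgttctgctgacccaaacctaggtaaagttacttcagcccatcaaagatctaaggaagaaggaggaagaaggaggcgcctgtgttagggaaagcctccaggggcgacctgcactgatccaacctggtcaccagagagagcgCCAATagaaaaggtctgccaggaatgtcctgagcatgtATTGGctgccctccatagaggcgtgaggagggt
Hpd held 1 match to the GC box (GGGCGG), and Fah held 3 matches to the GC box. Upb1 held 2 matches to the CCAAT box (CCAAT), while the Agxt window held no match.

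RefSeq promoters were found for 37 of the 44 genes (all but Aldh7a1, Cth, Dbt, Dpys, Gpt, Kynu and Mat1a), against 27025 genes in all. The 27025 reached beyond the 14293 genes measured here, all protein-coding, so the sets of windows were not matched in kind. A CCAAT box lay in 56.8% of the 37 windows and in 34.5% of all windows, and a GC box in 43.2% and 32.9%. The TATA box (TATAAA) was found in 8.11% against 13%, the C/EBP motif (TTGCNNAA) in 8.11% against 9.55% and the cAMP response half-site (TGACG) in 10.8% against 17.9%. An exact match to the HNF4 motif (CAAAGTCCA) or the glucocorticoid response element was in none of the 37 windows, and each was in 0.381% of all. Motifs this rare would most often be missing from 37 windows, so their absence says nothing about these genes. These are counts of letters and mark no site of binding.

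In vutiglabridin livers, some genes of tyrosine, tryptophan, branched-chain and sulfur amino acid, proline, lysine and pyrimidine breakdown rose, with Agxt and the aspartate transaminases. The rises of the lysine genes and the aspartate transaminases did not hold under every scaling tried. Of the branched-chain rises, only that of Ivd did. Of the 44 genes, 22 rose, 0 fell and 22 did not pass an adjusted p of 0.05 (limma on log2(FPKM + 1), Benjamini-Hochberg over all genes), where 6.53% of all genes tested rose and 8.78% fell (15.3% in all). Their median log2 change was 0.303 against 0.0127 over all genes, and 43 of 44 changes were positive. Vutiglabridin and vehicle livers shared no range in 6 genes (Hpd, Fah, Afmid, Agxt, Aldh7a1 and Upb1), as in 1.74% of all genes. No gene fell at an unadjusted p under 0.05 (limma), and 0 also fell in the exact permutation test, where 20 rose. In that test 645 of all 11562 genes rose and 727 fell. None of the 44 reached a 2-fold change, and the largest ratio of means was that of Gnmt, 1.79-fold.

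The count of rises depended on scaling. The vutiglabridin libraries had larger FPKM totals (344271 to 385601 against 318267 to 352578 in vehicle), and rescaling to equal totals (TPM) left 14 genes higher and 1 lower (Gpt2, log2 change −0.20, adjusted p = 0.0463), while it moved the median of all genes to −0.13 and the calls over all genes to 233 higher and 2731 lower, against 755 and 1015 before. The median of the 44 genes minus that of all genes was 0.278 under TPM, 0.125 under quantile normalization and 0.290 without rescaling. Quantile normalization left 12 of the 44 higher, where 538 of the 11562 genes were higher and 848 lower. Hpd, Fah, Haao, Acmsd, Afmid, Ivd, Gnmt, Ahcy, Agxt, Prodh and Upb1, 11 genes, passed under every one of the 13 alternatives and without any 1 of the 24 libraries.

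With semaglutide most of the 44 genes did not pass the test. In the fit to all 24 samples without rescaling or correction, the share called was no higher than over all genes. Of the 44, 5 rose (Dpyd, Agxt, Dbt, Acadsb and Upb1), 4 fell (Bhmt, Gldc, Kmo and Bckdhb) and 35 did not pass, where 14.3% of all genes rose and 12.7% fell (27% in all). Their median log2 change was −0.0121, against −0.0136 over all genes. Only Dpyd had values that did not overlap those of vehicle, and 5.83% of all genes had such values. Under TPM the split was 3 higher and 6 lower, where 1202 of the 11562 genes rose and 2116 fell. After the GC content and exon length correction it was 9 higher and 8 lower, where 1618 of all genes rose and 1656 fell. With the replicate block added it was 11 higher and 8 lower, where 1634 rose and 1636 fell. Under this correction, without and with the block, the share called was larger than over all genes. The changes of semaglutide against vehicle over all genes correlated with GC content and exon length across genes (Spearman −0.303 and 0.272). So did those of vutiglabridin against semaglutide (0.254 and −0.291), while those of vutiglabridin against vehicle did so less (−0.066 and −0.0155). Leaving out single libraries gave 3 to 9 higher (3 without vehicle replicate 1, 2 or 7 or semaglutide replicate 1 or 4, 9 without vehicle replicate 8) and 2 to 5 lower (2 without vehicle replicate 2 or semaglutide replicate 3).

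Set directly against each other, vutiglabridin livers were higher than semaglutide livers in 31 of the 44 genes and lower in 1 (Dpyd), and 12 did not pass, where 11.9% of all genes were higher and 12.6% lower (24.4% in all). The median log2 difference was 0.293, against 0.00876 over all genes. Values did not overlap for Bhmt and Aldh7a1, as for 3.4% of all genes. TPM scaling left 20 higher and 1 lower, where 596 of the 11562 genes were higher and 2264 lower. Quantile normalization left 19 higher and 1 lower, where 1197 of all genes were higher and 1345 lower. After the GC content and exon length correction 26 were higher and 0 lower, where 1526 of all genes were higher and 1354 lower. With the replicate block added, 27 were higher and 0 lower, where 1512 of all genes were higher and 1350 lower. The comparisons share libraries, the vehicle or the vutiglabridin ones. Cbs, Mat1a, Gcsh, Amt, Dpys, Gpt and Gpt2, 7 genes, passed in no comparison.

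**Figure D1:**
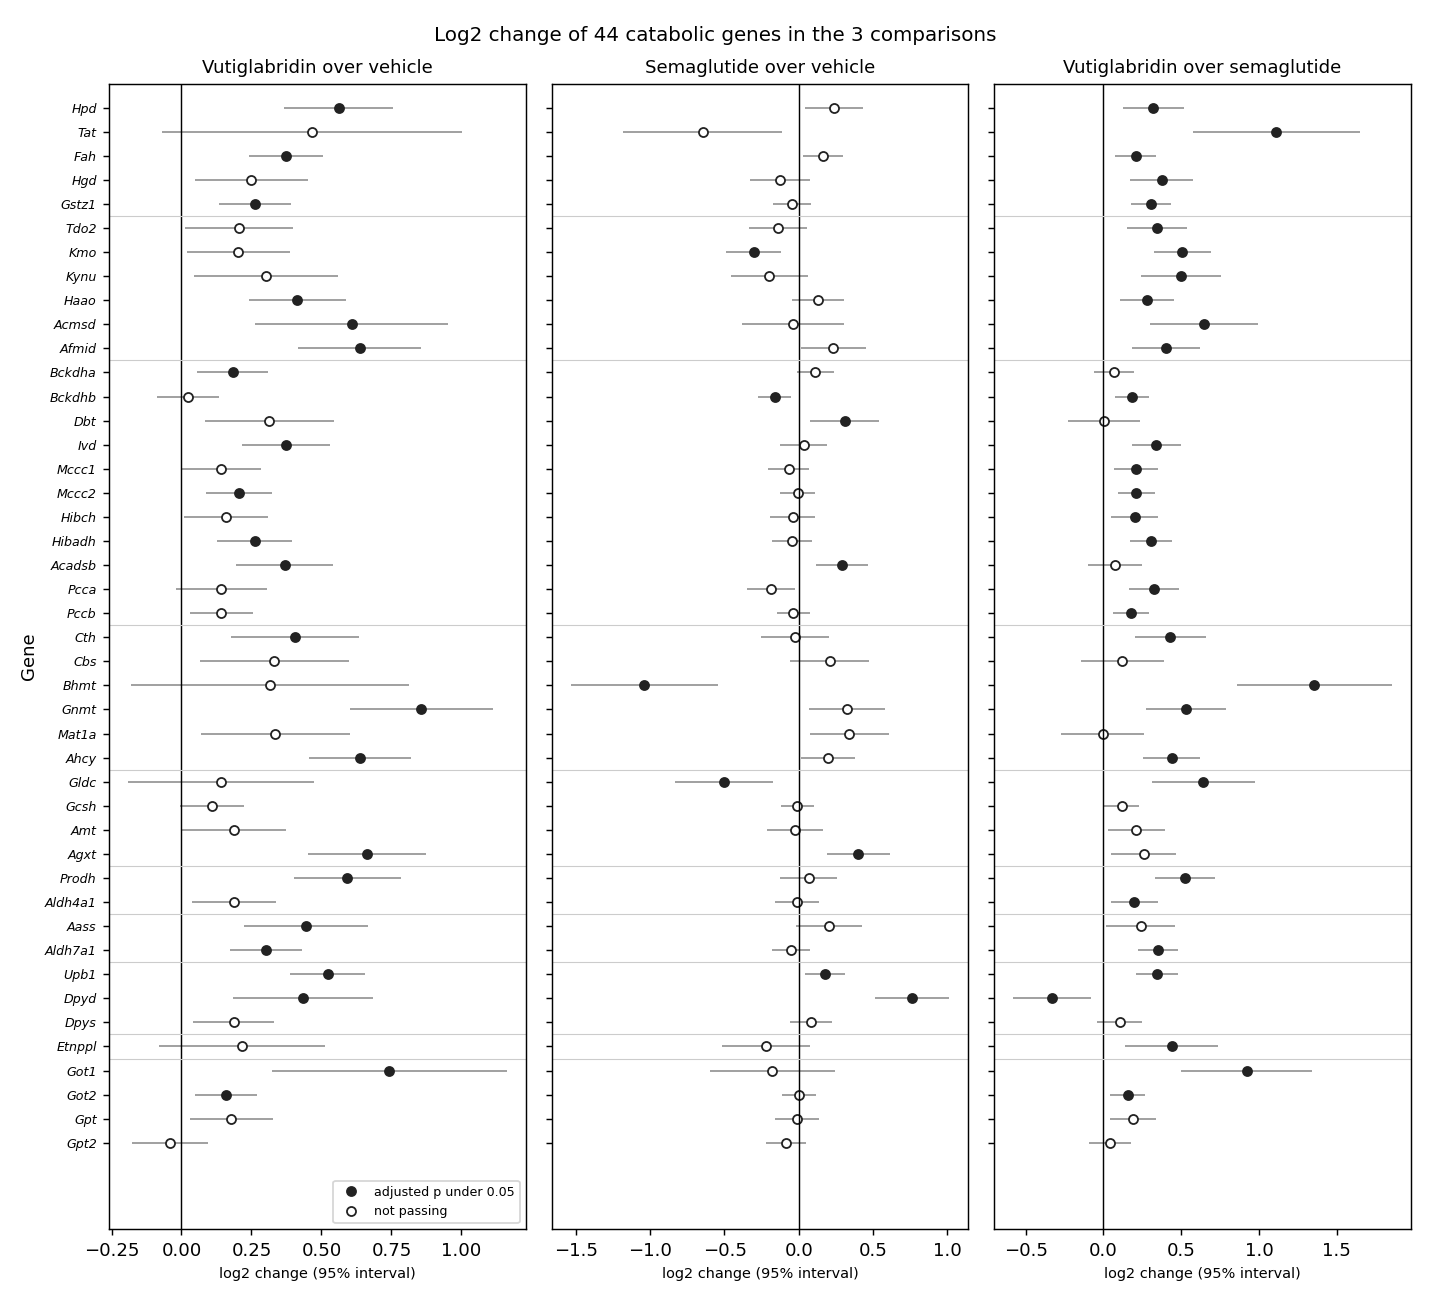
Log2 change of each of the 44 genes (x axis, log2(FPKM + 1) scale, with its 95% interval as a line) in the 3 comparisons, with genes down the page by pathway and a scale of its own in each panel. Filled points have an adjusted p under 0.05, and they number 22 for vutiglabridin over vehicle, 9 for semaglutide over vehicle and 32 for vutiglabridin over semaglutide.

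**Figure D2:**
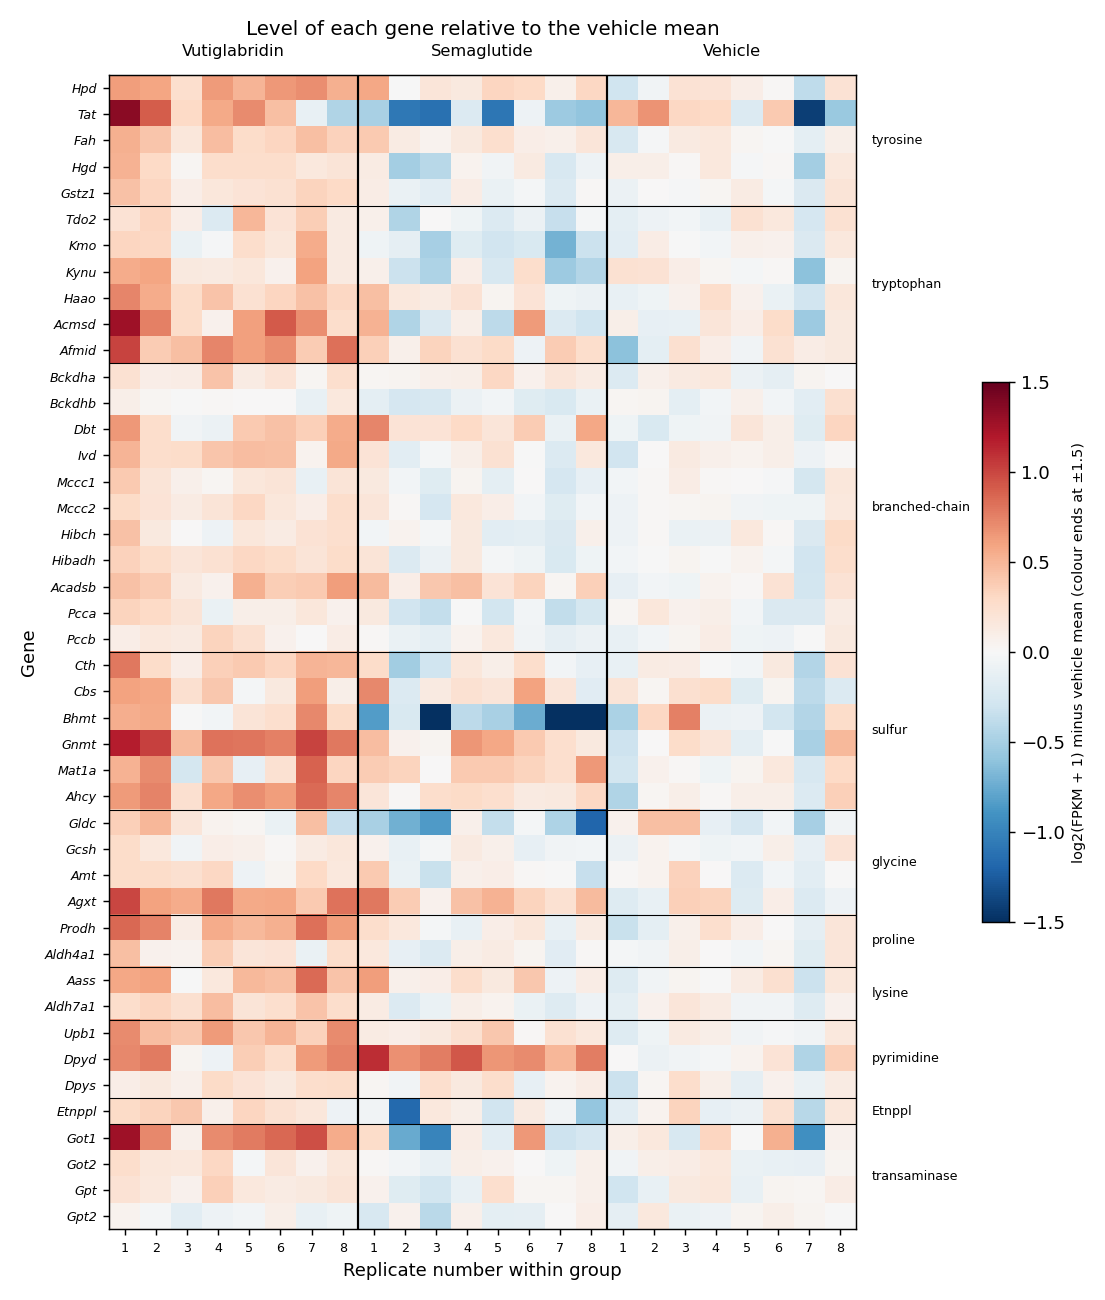
Level of each of the 44 genes (rows, by pathway) in each of the 24 livers (columns, by replicate number within the 3 groups), as log2(FPKM + 1) minus the vehicle mean, with colour ends at ±1.5. The vutiglabridin columns are mostly red, vehicle replicate 7 is mostly blue, and the row of Bhmt is blue across the semaglutide columns.

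Tyrosine breakdown runs through Tat, Hpd, Hgd, Gstz1 and Fah in that order, and Hpd, Fah and Gstz1 rose with vutiglabridin while none of the 5 passed with semaglutide. Pathway counts here and below are to be read against all genes, of which 6.53% rose and 8.78% fell with vutiglabridin. With semaglutide 14.3% of all genes rose and 12.7% fell, and between the drugs 11.9% were higher and 12.6% lower with vutiglabridin. Changes below are on the log2(FPKM + 1) scale with their SE, and adjusted p-values are from limma. Tat, which moves the amino group off tyrosine (chr8:109990437-109999803, GRCm38), had 299 to 1048 FPKM (median 585) in vutiglabridin livers, 188 to 388 FPKM (median 276) in semaglutide livers and 153 to 652 FPKM (median 507) in vehicle livers. The ranges of vutiglabridin and vehicle overlapped, while 6 of 8 vutiglabridin livers lay above every semaglutide liver. Tat changed by 1.11 ± 0.26 (adjusted p = 0.00281) between the drugs, 2.24-fold, the largest difference of the 5. Neither change against vehicle passed, at 0.47 ± 0.26 (adjusted p = 0.247) with vutiglabridin and −0.65 ± 0.26 (adjusted p = 0.0662) with semaglutide. The semaglutide change passed without semaglutide replicate 6 or vehicle replicates 7 or 8, taken singly (adjusted p = 0.00767 to 0.0471) and under 3 of the 13 alternatives (adjusted p = 0.0333 to 0.0439).

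Hpd, the dioxygenase that makes homogentisate, had 916 to 1252 FPKM (median 1175) in vutiglabridin livers, 765 to 1152 FPKM (median 910.3) in semaglutide livers and 589.9 to 898 FPKM (median 801) in vehicle livers. Every vutiglabridin liver stood above every vehicle liver, although vutiglabridin replicate 3 stood apart from the rest of its group. Hpd rose with vutiglabridin by 0.56 ± 0.09 (adjusted p = 0.000338). Its change with semaglutide, 0.24 ± 0.09 (adjusted p = 0.062), passed without semaglutide replicate 2 or vehicle replicates 3, 4 or 8, taken singly (adjusted p = 0.0377 to 0.046), and after the GC content and exon length correction, without and with the replicate block (adjusted p = 0.0115 and 0.0197). The drugs differed by 0.32 ± 0.09 (adjusted p = 0.0146). The call of Hpd was lost under quantile normalization (adjusted p = 0.229) and after the GC content and exon length correction, without and with the replicate block (adjusted p = 0.0934 and 0.117).

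Fah, the hydrolase that ends the route in fumarate and acetoacetate, had 268 to 344 FPKM (median 311) in vutiglabridin livers, 247 to 312 FPKM (median 260.2) in semaglutide livers and 202 to 264 FPKM (median 240.0) in vehicle livers. Its lowest vutiglabridin liver was above its highest vehicle liver. Fah rose with vutiglabridin by 0.37 ± 0.06 (adjusted p = 0.000397). Its change with semaglutide, 0.16 ± 0.06 (adjusted p = 0.0593), passed without vehicle replicates 3 or 4, taken singly (adjusted p = 0.0404 to 0.049) and under 4 of the 13 alternatives (adjusted p = 0.00412 to 0.0473). The drugs differed by 0.21 ± 0.06 (adjusted p = 0.0198). The call of Fah was lost under 4 of the 13 alternatives (adjusted p = 0.129 to 0.741).

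Gstz1, the isomerase before Fah, averaged 159.7 ± 12.03 FPKM in vutiglabridin, 129 ± 10.7 in semaglutide and 133 ± 11.6 in vehicle livers (SD, n = 8 each, here and for the means that follow). It rose with vutiglabridin by 0.26 ± 0.06 (adjusted p = 0.00567). The call of Gstz1 was lost under quantile normalization (adjusted p = 0.345) and under TPM scaling (adjusted p = 0.171). It differed between the drugs by 0.31 ± 0.06 (adjusted p = 0.000832). The call of Gstz1 was lost under quantile normalization (adjusted p = 0.0937). Hgd, which opens the ring of homogentisate, averaged 343 ± 34.6 FPKM in vutiglabridin, 267 ± 42.9 in semaglutide and 290.2 ± 38.1 in vehicle livers. It passed between the drugs, at 0.37 ± 0.10 (adjusted p = 0.00699). The call of Hgd was lost under quantile normalization (adjusted p = 0.107). Its change with vutiglabridin over vehicle, 0.25 ± 0.10 (adjusted p = 0.0878), passed under 3 of the 13 alternatives (adjusted p = 0.0358 to 0.0498).

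Tryptophan breakdown by the kynurenine route gave 3 rises among 6 genes with vutiglabridin (Haao, Acmsd and Afmid), 1 fall with semaglutide (Kmo) and 6 of 6 higher with vutiglabridin than with semaglutide. Tdo2, which opens the indole ring as the first step, had 323 to 524 FPKM (median 430.1) in vutiglabridin livers, 272 to 393 FPKM (median 352) in semaglutide livers and 313 to 437 FPKM (median 356) in vehicle livers. Its groups overlapped, with 7 of 8 vutiglabridin livers above every semaglutide liver. The drugs differed by 0.34 ± 0.09 (adjusted p = 0.0092). The call of Tdo2 was lost under quantile normalization (adjusted p = 0.153) and under TPM scaling (adjusted p = 0.0648). Against vehicle Tdo2 stood at 0.20 ± 0.09 (adjusted p = 0.148) with vutiglabridin, which passed without vutiglabridin replicate 4 (adjusted p = 0.042), and at −0.14 ± 0.09 (adjusted p = 0.297) with semaglutide, which passed after the GC content and exon length correction, without and with the replicate block (adjusted p = 0.0171 and 0.0217).

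Afmid, the formamidase of the next step, had 8.46 to 13.7 FPKM (median 10.5) in vutiglabridin livers, 5.94 to 8.48 FPKM (median 7.83) in semaglutide livers and 3.75 to 7.58 FPKM (median 6.84) in vehicle livers. All 8 vutiglabridin livers exceeded all vehicle livers. Afmid rose with vutiglabridin by 0.64 ± 0.11 (adjusted p = 0.000325), to 1.63 times the vehicle mean, and its change with semaglutide, 0.23 ± 0.11 (adjusted p = 0.107), passed after the GC content and exon length correction, without and with the replicate block (adjusted p = 0.0263 and 0.0426). Kmo, the hydroxylase that carries kynurenine towards NAD, had 66.7 to 105 FPKM (median 83.1) in vutiglabridin livers, 43.1 to 68.4 FPKM (median 59.4) in semaglutide livers and 61.3 to 79.7 FPKM (median 72.8) in vehicle livers. Here 5 of 8 semaglutide livers lay under every vehicle liver, and 7 of 8 vutiglabridin livers lay above every semaglutide liver. Kmo fell with semaglutide, at −0.30 ± 0.09 (adjusted p = 0.0137), stood at 0.20 ± 0.09 (adjusted p = 0.13) with vutiglabridin and differed between the drugs by 0.51 ± 0.09 (adjusted p = 0.000204).

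Haao, which opens the ring of hydroxyanthranilate, averaged 119.5 ± 14.5 FPKM in vutiglabridin, 98.2 ± 12.3 in semaglutide and 89.6 ± 10.99 in vehicle livers. It rose with vutiglabridin by 0.41 ± 0.08 (adjusted p = 0.0016). Its difference between the drugs, 0.28 ± 0.08 (adjusted p = 0.0157), was lost under quantile normalization (adjusted p = 0.324) and under TPM scaling (adjusted p = 0.0746). Acmsd, which diverts the route away from NAD, averaged 10.8 ± 3.33 FPKM in vutiglabridin, 6.59 ± 2.39 in semaglutide and 6.60 ± 1.24 in vehicle livers. It rose with vutiglabridin by 0.61 ± 0.17 (adjusted p = 0.015), stood at −0.04 ± 0.17 (adjusted p = 0.892) with semaglutide and differed between the drugs by 0.65 ± 0.17 (adjusted p = 0.00625). Kynu, the kynureninase, averaged 38.6 ± 6.70 FPKM in vutiglabridin, 27.2 ± 6.07 in semaglutide and 31.1 ± 5.11 in vehicle livers. It passed between the drugs, at 0.50 ± 0.13 (adjusted p = 0.00503). Its change with semaglutide over vehicle, −0.20 ± 0.13 (adjusted p = 0.259), passed after the GC content and exon length correction, without and with the replicate block (adjusted p = 0.033 and 0.0329).

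Of the 11 genes of branched-chain amino acid breakdown, 5 rose and 0 fell with vutiglabridin (Bckdha, Ivd, Mccc2, Hibadh and Acadsb). With semaglutide 2 rose and 1 fell (Dbt and Acadsb, and Bckdhb), a share near the 27% of all genes called, so these are values of single genes. Between the drugs, 8 were higher with vutiglabridin than with semaglutide. Bckdha, a subunit of the dehydrogenase complex that commits leucine, isoleucine and valine to breakdown, had 134 to 177 FPKM (median 148) in vutiglabridin livers, 134 to 163 FPKM (median 139) in semaglutide livers and 114 to 147 FPKM (median 134) in vehicle livers. Its groups overlapped. The rise of Bckdha with vutiglabridin, 0.18 ± 0.06 (adjusted p = 0.0459), was lost without any 1 of 14 of the 24 libraries (adjusted p = 0.0514 to 0.103) and under 5 of the 13 alternatives (adjusted p = 0.0628 to 0.84). Its change with semaglutide, 0.11 ± 0.06 (adjusted p = 0.183), passed after the GC content and exon length correction, without and with the replicate block (adjusted p = 0.000573 and 0.0014). Bckdhb, the partner subunit, averaged 61.3 ± 3.28 FPKM in vutiglabridin, 53.9 ± 3.00 in semaglutide and 60.5 ± 5.58 in vehicle livers. It fell with semaglutide, at −0.16 ± 0.05 (adjusted p = 0.0283). The call of Bckdhb was lost without semaglutide replicates 2 or 3 or vehicle replicates 2, 5 or 8, taken singly (adjusted p = 0.0501 to 0.0623), and after the GC content and exon length correction, without and with the replicate block (adjusted p = 0.359 and 0.215). The drugs differed by 0.18 ± 0.05 (adjusted p = 0.0146). The call of Bckdhb was lost under 4 of the 13 alternatives (adjusted p = 0.162 to 0.304).

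Dbt, the core subunit of the complex, averaged 26.2 ± 4.79 FPKM in vutiglabridin, 26.1 ± 4.93 in semaglutide and 20.7 ± 2.87 in vehicle livers. It rose with semaglutide by 0.31 ± 0.11 (adjusted p = 0.0422). The call of Dbt was lost without any 1 of 9 of the 24 libraries (adjusted p = 0.0585 to 0.0995) and under 3 of the 13 alternatives (adjusted p = 0.0533 to 0.0852). With vutiglabridin it stood at 0.31 ± 0.11 (adjusted p = 0.0588), which passed without vutiglabridin replicates 3 or 4, semaglutide replicates 1 or 7 or vehicle replicate 8, taken singly (adjusted p = 0.0219 to 0.0451), and with the replicate block (adjusted p = 0.0192) and after the GC content and exon length correction, without and with the replicate block (adjusted p = 0.031 and 0.0103). The difference between the drugs was 0.00 ± 0.11 (adjusted p = 0.981), with a 95% interval of −0.23 to 0.24. Ivd, the isovaleryl-CoA dehydrogenase of leucine breakdown, had 29.7 to 42.7 FPKM (median 39.05) in vutiglabridin livers, 24.7 to 33.8 FPKM (median 29.4) in semaglutide livers and 23.2 to 31.5 FPKM (median 29.4) in vehicle livers. Among its livers, 7 of 8 with vutiglabridin and 3 of 8 with semaglutide lay above every vehicle liver. Ivd rose with vutiglabridin by 0.37 ± 0.08 (adjusted p = 0.00163) and was higher than with semaglutide by 0.34 ± 0.08 (adjusted p = 0.00202).

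Acadsb, the acyl-CoA dehydrogenase of the isoleucine branch, had 15.5 to 23.3 FPKM (median 19.6) in vutiglabridin livers, 15.1 to 20.9 FPKM (median 18.98) in semaglutide livers and 12.01 to 17.3 FPKM (median 14.7) in vehicle livers. Among its livers, 6 of 8 with vutiglabridin and 5 of 8 with semaglutide lay above every vehicle liver. It rose with both drugs, by 0.37 ± 0.08 (adjusted p = 0.00422) with vutiglabridin, lost under TPM scaling (adjusted p = 0.0532), and by 0.29 ± 0.08 (adjusted p = 0.0116) with semaglutide. The call of Acadsb was lost after the GC content and exon length correction (adjusted p = 0.057). The difference between the drugs was 0.08 ± 0.08 (adjusted p = 0.545), with a 95% interval of −0.10 to 0.25, and it passed after the GC content and exon length correction, without and with the replicate block (adjusted p = 0.0371 and 0.0318).

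Mccc2, a subunit of the carboxylase of leucine breakdown, averaged 27.7 ± 1.49 FPKM in vutiglabridin, 23.9 ± 2.60 in semaglutide and 23.9 ± 1.46 in vehicle livers. It rose with vutiglabridin by 0.21 ± 0.06 (adjusted p = 0.017). The call of Mccc2 was lost under quantile normalization (adjusted p = 0.0816) and under TPM scaling (adjusted p = 0.467). It differed between the drugs by 0.21 ± 0.06 (adjusted p = 0.00875). The call of Mccc2 was lost under 4 of the 13 alternatives (adjusted p = 0.0683 to 0.114). Mccc1, the other subunit, averaged 7.43 ± 0.850 FPKM in vutiglabridin, 6.28 ± 0.669 in semaglutide and 6.63 ± 0.656 in vehicle livers. It passed between the drugs at 0.21 ± 0.07 (adjusted p = 0.0261). The call of Mccc1 was lost without vutiglabridin replicate 1 or semaglutide replicates 3 or 7, taken singly (adjusted p = 0.0522 to 0.0616), and in the exact permutation test (adjusted p = 0.0503) and under TPM scaling (adjusted p = 0.207). Its semaglutide change over vehicle, −0.07 ± 0.07 (adjusted p = 0.5), passed after the GC content and exon length correction, without and with the replicate block (adjusted p = 0.00458 and 0.00449). Hibadh, a dehydrogenase of valine breakdown, averaged 41.1 ± 1.65 FPKM in vutiglabridin, 33.2 ± 3.65 in semaglutide and 34.3 ± 3.64 in vehicle livers. Hibadh rose with vutiglabridin by 0.26 ± 0.07 (adjusted p = 0.00765). The call of Hibadh was lost under quantile normalization (adjusted p = 0.0907) and under TPM scaling (adjusted p = 0.179). It differed between the drugs by 0.30 ± 0.07 (adjusted p = 0.00136). Its semaglutide change, −0.04 ± 0.07 (adjusted p = 0.674), passed after the GC content and exon length correction, without and with the replicate block (adjusted p = 0.00393 and 0.00525).

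Hibch, the hydrolase before Hibadh, averaged 18.1 ± 2.07 FPKM in vutiglabridin, 15.6 ± 1.43 in semaglutide and 16.1 ± 1.95 in vehicle livers. It passed between the drugs, at 0.20 ± 0.07 (adjusted p = 0.0475). The call of Hibch was lost without any 1 of 17 of the 24 libraries (adjusted p = 0.0504 to 0.106) and under 6 of the 13 alternatives (adjusted p = 0.0505 to 0.32). Pcca and Pccb are the subunits of propionyl-CoA carboxylase, through which valine and isoleucine carbon enters the tricarboxylic acid cycle. Pcca averaged 21.2 ± 2.11 FPKM in vutiglabridin, 16.8 ± 2.43 in semaglutide and 19.2 ± 2.00 in vehicle livers and passed between the drugs, at 0.33 ± 0.08 (adjusted p = 0.00366). Its semaglutide change, −0.18 ± 0.08 (adjusted p = 0.0844), passed without semaglutide replicate 1 or vehicle replicate 6, taken singly (adjusted p = 0.0266 to 0.0478), and under TPM scaling (adjusted p = 0.0219) and after the GC content and exon length correction, without and with the replicate block (adjusted p = 0.0407 and 0.0475). Pccb averaged 85.2 ± 6.15 FPKM in vutiglabridin, 75.2 ± 5.80 in semaglutide and 77.04 ± 5.13 in vehicle livers and passed between the drugs, at 0.18 ± 0.06 (adjusted p = 0.0202). The call of Pccb was lost under 4 of the 13 alternatives (adjusted p = 0.129 to 0.296). Its vutiglabridin change, 0.14 ± 0.06 (adjusted p = 0.0819), passed without vehicle replicate 8 (adjusted p = 0.045), and after the GC content and exon length correction, without and with the replicate block (adjusted p = 0.0366 and 0.0291).

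The methionine and homocysteine genes held the largest rise of the 44 with vutiglabridin (Gnmt) and the largest fall with semaglutide (Bhmt). Of 6 genes, Gnmt, Ahcy and Cth rose with vutiglabridin, Bhmt fell with semaglutide, and Bhmt, Gnmt, Ahcy and Cth were higher with vutiglabridin than with semaglutide. Gnmt, which spends S-adenosylmethionine to methylate glycine (chr17:46725664-46729168, GRCm38), had 872 to 1422 FPKM (median 1098) in vutiglabridin livers, 645 to 996 FPKM (median 786) in semaglutide livers and 447 to 880.0 FPKM (median 629) in vehicle livers. Among vutiglabridin livers 7 of 8 exceeded every vehicle liver. Gnmt rose with vutiglabridin by 0.86 ± 0.12 (adjusted p = 8.25e-05), to 1.79 times the vehicle mean, and the drugs differed by 0.53 ± 0.12 (adjusted p = 0.00277). Its semaglutide change, 0.33 ± 0.12 (adjusted p = 0.0513), passed without any 1 of 8 of the 24 libraries (adjusted p = 0.0156 to 0.0498) and under 6 of the 13 alternatives (adjusted p = 0.0138 to 0.0494).

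Ahcy, the hydrolase that splits S-adenosylhomocysteine, had 143 to 218 FPKM (median 193) in vutiglabridin livers, 123 to 150.3 FPKM (median 140.5) in semaglutide livers and 88.2 to 155 FPKM (median 126) in vehicle livers. Among vutiglabridin livers 7 of 8 lay above all of vehicle. Ahcy rose with vutiglabridin by 0.64 ± 0.09 (adjusted p = 5e-05). Its semaglutide change, 0.20 ± 0.09 (adjusted p = 0.0965), passed without vehicle replicate 8 (adjusted p = 0.0313), and after the GC content and exon length correction, without and with the replicate block (adjusted p = 0.0185 and 0.0231). Bhmt, which methylates homocysteine back to methionine with betaine (chr13:93616675-93637961, GRCm38), had 166 to 284 FPKM (median 207) in vutiglabridin livers, 31.3 to 147 FPKM (median 98.4) in semaglutide livers and 123 to 291 FPKM (median 162) in vehicle livers. No semaglutide liver reached the level of any vutiglabridin liver, and 6 of 8 lay under every vehicle liver. Bhmt fell to 0.518 times the vehicle mean with semaglutide, a log2 change of −1.04 ± 0.24 (adjusted p = 0.00231). With vutiglabridin it stood at 0.31 ± 0.24 (adjusted p = 0.425). The drugs differed by 1.35 ± 0.24 (adjusted p = 0.000217), 2.35-fold. How reads shared with the similar gene Bhmt2 were assigned is not given in the sources used here.

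Mat1a, which makes S-adenosylmethionine in the adult liver, averaged 1036 ± 271 FPKM in vutiglabridin, 1015 ± 123 in semaglutide and 802 ± 107 in vehicle livers. Its vutiglabridin change, 0.34 ± 0.13 (adjusted p = 0.0788), passed without vutiglabridin replicates 3 or 5, taken singly (adjusted p = 0.0155 to 0.0328). Its semaglutide change, 0.34 ± 0.13 (adjusted p = 0.0507), passed without any 1 of 7 of the 24 libraries (adjusted p = 0.0298 to 0.048) and under 7 of the 13 alternatives (adjusted p = 0.00944 to 0.0488). The difference between the drugs was −0.01 ± 0.13 (adjusted p = 0.98), with a 95% interval of −0.27 to 0.26. Cth and Cbs drain homocysteine to cysteine. Cth had 86.2 to 140.2 FPKM (median 104) in vutiglabridin livers, 55.7 to 97.7 FPKM (median 81.5) in semaglutide livers and 58.9 to 93.5 FPKM (median 83.2) in vehicle livers, and 7 of 8 vutiglabridin livers were above every vehicle liver. Cth rose with vutiglabridin by 0.40 ± 0.11 (adjusted p = 0.0143), lost under quantile normalization (adjusted p = 0.106) and under TPM scaling (adjusted p = 0.0679), and stood at −0.02 ± 0.11 (adjusted p = 0.901) with semaglutide. Cbs averaged 67.3 ± 11.9 FPKM in vutiglabridin, 62.3 ± 14.7 in semaglutide and 53.2 ± 8.76 in vehicle livers, and its vutiglabridin change, 0.33 ± 0.13 (adjusted p = 0.0825), passed without vutiglabridin replicate 5 (adjusted p = 0.0483), and after the GC content and exon length correction with replicate block (adjusted p = 0.0409).

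**Figure D3:**
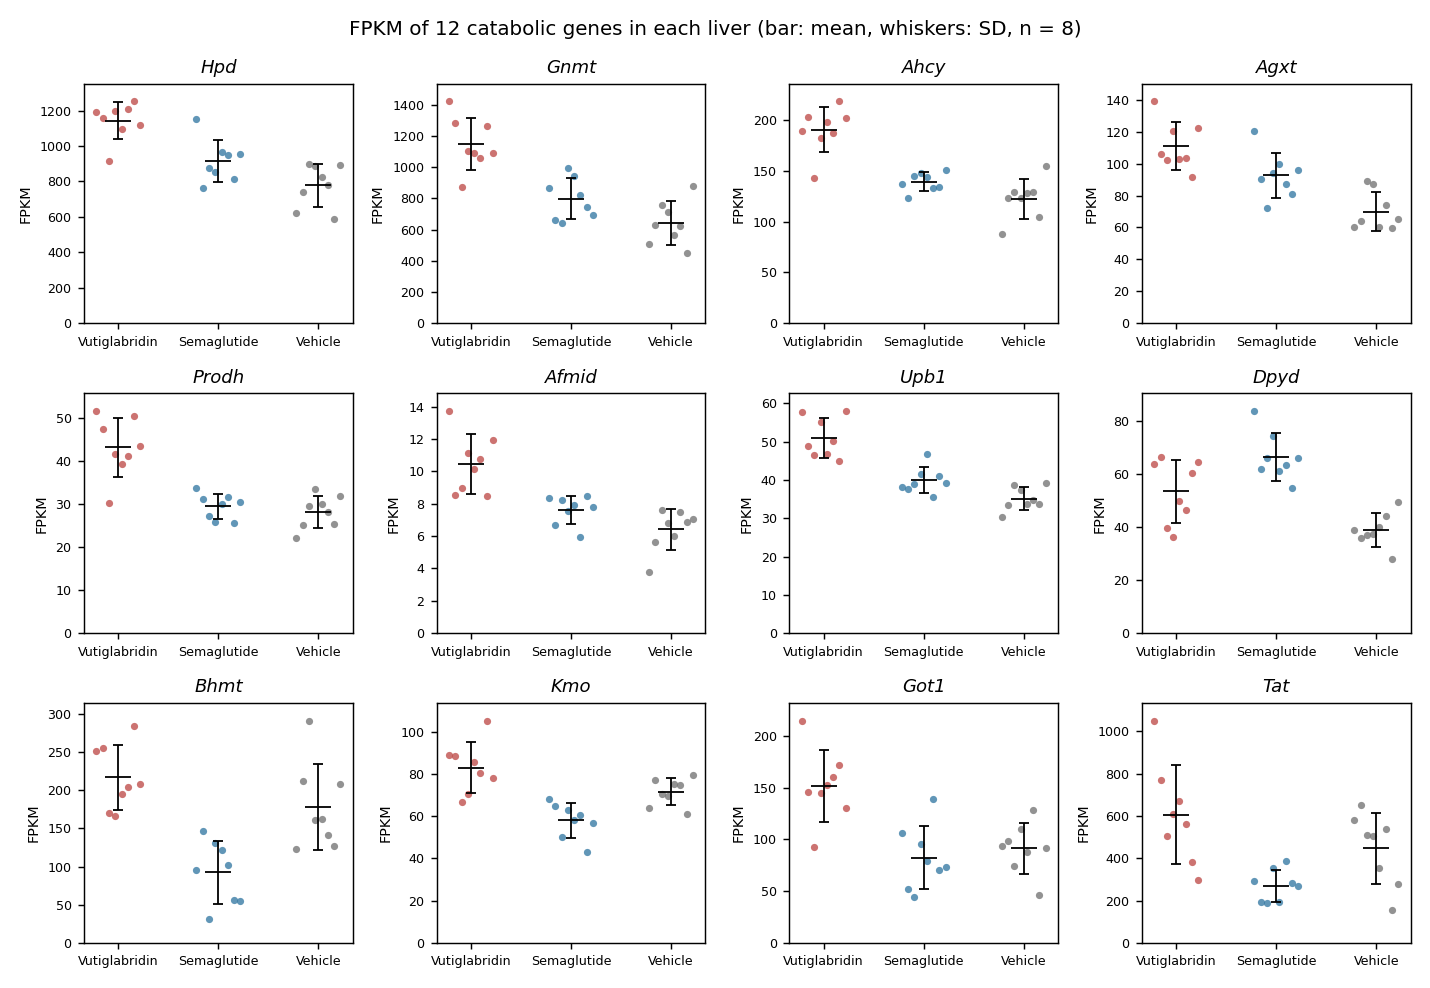
FPKM (y axis, from 0) of 12 of the genes in each of the 8 livers of the vutiglabridin, semaglutide and vehicle groups, with points for livers, a bar for the mean and whiskers for the SD. The vutiglabridin points of Hpd, Agxt, Afmid and Upb1 lie above all vehicle points, those of semaglutide do so for Dpyd, and all vutiglabridin points of Bhmt lie above all semaglutide points.

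None of the 3 glycine cleavage genes rose with vutiglabridin. Gldc, the decarboxylase of the system, had 14.8 to 27.3 FPKM (median 20.9) in vutiglabridin livers, 7.77 to 20.2 FPKM (median 13.4) in semaglutide livers and 13.2 to 26.5 FPKM (median 18.5) in vehicle livers. The groups overlapped, with 3 semaglutide livers under every vehicle liver. Gldc fell with semaglutide, at −0.50 ± 0.16 (adjusted p = 0.0226). The call of Gldc was lost without semaglutide replicates 3 or 8 or vehicle replicates 2 or 3, taken singly (adjusted p = 0.0501 to 0.0558) and in the exact permutation test (adjusted p = 0.0663). It stood at 0.14 ± 0.16 (adjusted p = 0.613) with vutiglabridin and differed between the drugs by 0.64 ± 0.16 (adjusted p = 0.0049). Gcsh, the lipoyl carrier of the system, averaged 71.1 ± 4.92 FPKM in vutiglabridin, 65.4 ± 4.31 in semaglutide and 65.9 ± 5.09 in vehicle livers, and stood at 0.11 ± 0.05 (adjusted p = 0.192) with vutiglabridin and −0.01 ± 0.05 (adjusted p = 0.926) with semaglutide. Amt, its aminomethyltransferase, averaged 25.4 ± 2.45 FPKM in vutiglabridin, 21.99 ± 3.92 in semaglutide and 22.2 ± 2.85 in vehicle livers, and stood at 0.19 ± 0.09 (adjusted p = 0.171) with vutiglabridin. The difference of Amt between the drugs, 0.21 ± 0.09 (adjusted p = 0.0868), passed without vutiglabridin replicate 5 or semaglutide replicate 1, taken singly (adjusted p = 0.0187 to 0.0462).

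Agxt, the peroxisomal enzyme that turns glyoxylate into glycine (chr1:93135240-93145421, GRCm38), had 91.5 to 139 FPKM (median 105) in vutiglabridin livers, 72.2 to 120.2 FPKM (median 92.3) in semaglutide livers and 59.9 to 88.9 FPKM (median 64.8) in vehicle livers. No vutiglabridin liver overlapped vehicle, and 5 of 8 semaglutide livers lay above every vehicle liver. Agxt rose with both drugs, by 0.66 ± 0.10 (adjusted p = 0.000166) with vutiglabridin and by 0.40 ± 0.10 (adjusted p = 0.00454) with semaglutide. The difference between the drugs was 0.26 ± 0.10 (adjusted p = 0.0627), and it passed without vutiglabridin replicate 7 or semaglutide replicate 1, taken singly (adjusted p = 0.0215 to 0.0374).

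Of the proline and lysine genes, Prodh, Aass and Aldh7a1 rose with vutiglabridin and none of the 4 passed with semaglutide. Prodh, the mitochondrial proline dehydrogenase, had 30.3 to 51.7 FPKM (median 42.7) in vutiglabridin livers, 25.7 to 33.8 FPKM (median 30.2) in semaglutide livers and 22.1 to 33.5 FPKM (median 28.9) in vehicle livers. Among vutiglabridin livers 7 of 8 were above all of vehicle. Prodh rose with vutiglabridin by 0.59 ± 0.09 (adjusted p = 0.000191), stood at 0.07 ± 0.09 (adjusted p = 0.642) with semaglutide and differed between the drugs by 0.53 ± 0.09 (adjusted p = 0.000203). Aldh4a1, the dehydrogenase of the following step, averaged 73.9 ± 9.32 FPKM in vutiglabridin, 64.1 ± 6.24 in semaglutide and 64.5 ± 4.98 in vehicle livers. It passed between the drugs, at 0.20 ± 0.07 (adjusted p = 0.049). The call of Aldh4a1 was lost without any 1 of 16 of the 24 libraries (adjusted p = 0.0535 to 0.109) and under 6 of the 13 alternatives (adjusted p = 0.0522 to 0.367). Its vutiglabridin change over vehicle, 0.19 ± 0.07 (adjusted p = 0.0842), passed without vutiglabridin replicate 7 (adjusted p = 0.0333), and with the replicate block (adjusted p = 0.0343) and after the GC content and exon length correction, without and with the replicate block (adjusted p = 0.0494 and 0.00695).

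Aass, the bifunctional enzyme that opens lysine breakdown, averaged 116 ± 20.8 FPKM in vutiglabridin, 97.3 ± 15.9 in semaglutide and 84.03 ± 10.8 in vehicle livers. It rose with vutiglabridin by 0.44 ± 0.11 (adjusted p = 0.00632). The call of Aass was lost under quantile normalization (adjusted p = 0.0786). Its difference between the drugs, 0.24 ± 0.11 (adjusted p = 0.104), passed without vutiglabridin replicate 3 or semaglutide replicate 1, taken singly (adjusted p = 0.0316 to 0.0365), and after the GC content and exon length correction (adjusted p = 0.0459). Aldh7a1, a later dehydrogenase of the same route, had 121 to 146 FPKM (median 127) in vutiglabridin livers, 91.4 to 115 FPKM (median 99.7) in semaglutide livers and 92.4 to 120.2 FPKM (median 106) in vehicle livers. Its vutiglabridin values overlapped neither vehicle nor semaglutide values. Aldh7a1 rose with vutiglabridin by 0.30 ± 0.06 (adjusted p = 0.00172), lost under quantile normalization (adjusted p = 0.0939), stood at −0.05 ± 0.06 (adjusted p = 0.603) with semaglutide and differed between the drugs by 0.35 ± 0.06 (adjusted p = 0.000198).

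Of the 3 pyrimidine genes, Dpyd and Upb1 rose with both drugs. Dpyd, which reduces uracil and thymine in the rate-limiting step (chr3:118562129-119432924, GRCm38), had 36.2 to 66.3 FPKM (median 55.1) in vutiglabridin livers, 54.5 to 83.6 FPKM (median 64.6) in semaglutide livers and 27.7 to 49.3 FPKM (median 38.02) in vehicle livers. Every semaglutide liver was above every vehicle liver, as were 5 of 8 vutiglabridin livers. Dpyd rose with vutiglabridin by 0.43 ± 0.12 (adjusted p = 0.0163), lost under 3 of the 13 alternatives (adjusted p = 0.0747 to 0.0784), and with semaglutide by 0.77 ± 0.12 (adjusted p = 4.8e-05), 1.71-fold. The drugs differed by −0.33 ± 0.12 (adjusted p = 0.0475), with vutiglabridin lower. The call of Dpyd was lost without any 1 of 16 of the 24 libraries (adjusted p = 0.0501 to 0.109) and under 6 of the 13 alternatives (adjusted p = 0.0543 to 0.11).

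Upb1, the ureidopropionase that ends the route, had 44.9 to 57.98 FPKM (median 49.5) in vutiglabridin livers, 35.5 to 46.8 FPKM (median 39.1) in semaglutide livers and 30.4 to 39.2 FPKM (median 34.3) in vehicle livers. Each vutiglabridin liver lay above all of vehicle. Upb1 rose with vutiglabridin by 0.52 ± 0.07 (adjusted p = 2.42e-05), 1.45-fold, the lowest p of the 44 genes in that comparison. It rose with semaglutide by 0.18 ± 0.07 (adjusted p = 0.0437), lost without any 1 of 11 of the 24 libraries (adjusted p = 0.0508 to 0.0951) and under 4 of the 13 alternatives (adjusted p = 0.0555 to 0.529), and the drugs differed by 0.34 ± 0.07 (adjusted p = 0.000402). Dpys, the hydrolase between them, averaged 83.2 ± 4.79 FPKM in vutiglabridin, 77.5 ± 7.35 in semaglutide and 73.4 ± 9.08 in vehicle livers, and its vutiglabridin change, 0.19 ± 0.07 (adjusted p = 0.0732), passed without vehicle replicate 3 (adjusted p = 0.0306), and after the GC content and exon length correction with replicate block (adjusted p = 0.0483) and with median centring (adjusted p = 0.0488). Etnppl, the lyase of phosphoethanolamine, averaged 7.52 ± 0.901 FPKM in vutiglabridin, 5.50 ± 1.71 in semaglutide and 6.38 ± 1.22 in vehicle livers. It passed between the drugs, at 0.44 ± 0.14 (adjusted p = 0.0275). The call of Etnppl was lost without semaglutide replicates 2 or 8, taken singly (adjusted p = 0.0511 to 0.0617) and under TPM scaling (adjusted p = 0.0761).

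Of the 4 transaminases, Got1 and Got2 rose with vutiglabridin and none passed with semaglutide. Got1, the cytosolic aspartate transaminase, had 93.03 to 214 FPKM (median 149) in vutiglabridin livers, 43.99 to 139 FPKM (median 76.3) in semaglutide livers and 45.9 to 128 FPKM (median 92.96) in vehicle livers. Among vutiglabridin livers 7 of 8 were above every vehicle liver and 6 of 8 above every semaglutide liver. Got1 rose with vutiglabridin by 0.74 ± 0.20 (adjusted p = 0.0145), 1.66-fold. The call of Got1 was lost under quantile normalization (adjusted p = 0.0516). It differed between the drugs by 0.92 ± 0.20 (adjusted p = 0.00179). Got2, its mitochondrial counterpart, averaged 76.2 ± 5.61 FPKM in vutiglabridin, 68.2 ± 3.37 in semaglutide and 68.2 ± 5.37 in vehicle livers. Its rise with vutiglabridin, 0.16 ± 0.05 (adjusted p = 0.0469), was lost without any 1 of 14 of the 24 libraries (adjusted p = 0.0509 to 0.101) and under 4 of the 13 alternatives (adjusted p = 0.08 to 0.967). Its difference between the drugs, 0.16 ± 0.05 (adjusted p = 0.0358), was lost without any 1 of 9 of the 24 libraries (adjusted p = 0.0504 to 0.0752) and under 4 of the 13 alternatives (adjusted p = 0.0504 to 0.509).

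Gpt, the cytosolic alanine transaminase, averaged 119.5 ± 7.32 FPKM in vutiglabridin, 105 ± 12.1 in semaglutide and 106 ± 11.6 in vehicle livers. Its vutiglabridin change, 0.18 ± 0.07 (adjusted p = 0.0973), passed after the GC content and exon length correction, without and with the replicate block (adjusted p = 0.0246 and 0.0274). Its difference between the drugs, 0.19 ± 0.07 (adjusted p = 0.0545), passed without vutiglabridin replicate 3, semaglutide replicate 5 or vehicle replicate 1, taken singly (adjusted p = 0.0169 to 0.0465) and with median centring (adjusted p = 0.047). Gpt2, the mitochondrial form, averaged 129 ± 7.41 FPKM in vutiglabridin, 125 ± 14.95 in semaglutide and 133 ± 9.21 in vehicle livers. It was the 1 gene of 44 with a negative change with vutiglabridin, −0.04 ± 0.07 (adjusted p = 0.721), which passed under TPM scaling (adjusted p = 0.0463).

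Further genes of the same pathways, 71 in the table and 69 tested, were chosen as pathway members with earlier results of these data known. With vutiglabridin 26 rose and 0 fell, where 6.53% of all genes rose and 8.78% fell. Their median log2 change was 0.208, against 0.0127 over all genes. Under TPM 11 of the 69 rose and 5 fell, where 233 of the 11562 genes rose and 2731 fell. Under quantile normalization 10 rose and 2 fell, where 538 of all genes rose and 848 fell. Of the 69, 16 rose without vehicle replicate 7, a fit in which the share of all genes was not counted. At an unadjusted p under 0.05 (limma) 1 fell, and the exact permutation test gave 0. The lowest p values belonged to Cdo1, the cysteine dioxygenase (0.53, adjusted p = 6.51e-05), Gcat, of threonine and glycine breakdown (0.51, adjusted p = 0.000252), Qdpr, which regenerates tetrahydrobiopterin (0.51, adjusted p = 0.000394), Aldh1l1, of folate metabolism (0.56, adjusted p = 0.000624), Shmt2, the mitochondrial serine hydroxymethyltransferase (0.30, adjusted p = 0.000806), and Kyat1, a kynurenine aminotransferase (0.61, adjusted p = 0.000859).

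With semaglutide 11 of the 69 rose and 8 fell, a share near the 14.3% of all genes that rose and 12.7% that fell, so the genes that follow are single values and no result about the list. Agxt2, a mitochondrial aminotransferase, averaged 59.9 ± 8.59 FPKM in semaglutide and 88.03 ± 6.60 in vehicle livers and fell, at −0.56 ± 0.07 (adjusted p = 3.66e-06). Sds, the serine dehydratase, averaged 80.7 ± 24.1 FPKM in semaglutide and 147 ± 27.8 in vehicle livers and fell, at −0.89 ± 0.16 (adjusted p = 0.000226), as did Sdsl, its paralog (−0.44, adjusted p = 0.000613), and Tymp, the thymidine phosphorylase (−0.53, adjusted p = 0.00407). Ppm1k, the phosphatase that activates the branched-chain dehydrogenase complex, rose by 0.47 ± 0.10 (adjusted p = 0.00146), and Glud1, the glutamate dehydrogenase, by 0.30 ± 0.07 (adjusted p = 0.00268). Between the drugs 30 were higher and 4 lower with vutiglabridin, where 11.9% of all genes were higher and 12.6% lower. Under TPM 16 were higher and 4 lower, where 596 of the 11562 genes were higher and 2264 lower. Sds averaged 215 ± 46.6 FPKM with vutiglabridin and differed from semaglutide by 1.43 ± 0.16 (adjusted p = 9.23e-07). Ftcd, of histidine breakdown, differed by 0.50 (adjusted p = 1.88e-05), Sdsl by 0.59 (adjusted p = 3.45e-05), Agxt2 by 0.44 (adjusted p = 7.86e-05), Dmgdh, the dimethylglycine dehydrogenase, by 0.46 (adjusted p = 9.88e-05) and Bhmt2, similar to Bhmt in sequence, by 0.42 (adjusted p = 0.000218).

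Of 18 regulators and hormone receptors of these pathways, 2 rose with vutiglabridin, among them the hepatocyte factor Hnf4a (0.33 ± 0.09, adjusted p = 0.0164), and 0 fell, which is no larger a share than the 15.3% of all genes called. With semaglutide 4 rose and 1 fell, near the 27% of all genes called, so these too are values of single genes. The insulin receptor gene Insr rose by 0.55 ± 0.09 (adjusted p = 7.83e-05), the coactivator gene Ppargc1a by 0.40 ± 0.07 (adjusted p = 0.00023) and the glucocorticoid receptor gene Nr3c1 by 0.54 ± 0.11 (adjusted p = 0.000645). Named after their values were seen, Ppara, a factor of fasting metabolism, rose by 0.41 ± 0.09 (adjusted p = 0.00132) and Cebpb, a factor of hormone and acute-phase responses, fell, at −0.63 ± 0.22 (adjusted p = 0.0315). Between the drugs, vutiglabridin livers were lower in Nr3c1, at −0.48 ± 0.11 (adjusted p = 0.00219), and Insr, at −0.38 ± 0.09 (adjusted p = 0.00376), and higher in Cebpb, at 0.91 ± 0.22 (adjusted p = 0.00321). Within groups, after each group's mean was removed from log2(FPKM + 1), the genes closest to Tat over the 24 livers were Abtb2, Kpnb1 and Mfsd2a (Spearman 0.811, 0.791 and 0.790). Those closest to Tdo2 were Cyp4v3, Brcc3 and Amd1 (0.862, 0.842 and 0.842), those closest to Gnmt were Suox, Mmp19 and Cideb (0.839, 0.800 and 0.792) and those closest to Etnppl were Rida, Erlin2 and Errfi1 (0.764, 0.735 and 0.699). These likenesses describe points that share libraries.

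The 44 genes together summed to 6301 to 9099 (median 7598) FPKM in vutiglabridin livers, 5288 to 6813 (median 6273) in semaglutide livers and 4493 to 6475 (median 6026) in vehicle livers. That was 1.83 to 2.37% of the FPKM total with vutiglabridin, 1.55 to 1.94% with semaglutide and 1.41 to 1.90% in vehicle. All vutiglabridin sums but that of replicate 3, 6301 FPKM, lay above every vehicle sum, and the lowest vehicle sum, 4493 FPKM, was that of replicate 7. Gnmt, Hpd and Mat1a were the most abundant of the 44 in every group by mean FPKM. Livers of a group differed most in Tat with vutiglabridin (coefficient of variation of FPKM 38.7%) and in vehicle (37.7%) and in Bhmt with semaglutide (44.5%), and least in Hibadh with vutiglabridin (4.02%), Got2 with semaglutide (4.95%) and Mccc2 in vehicle (6.09%). The median over the 44 genes was 11.8% with vutiglabridin, 12.02% with semaglutide and 12.6% in vehicle.

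**Figure D4:**
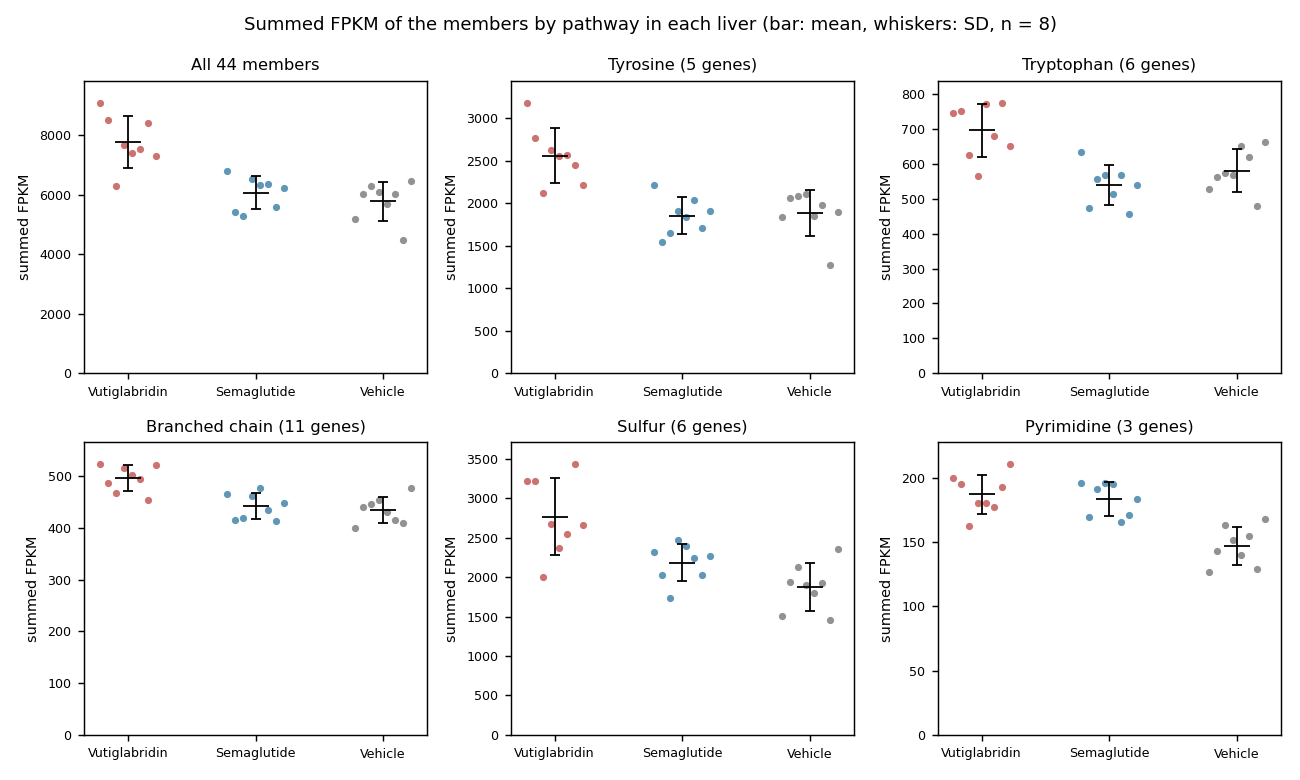
Summed FPKM (y axis, from 0) of all 44 genes and of 5 pathways in each of the 8 livers of the vutiglabridin, semaglutide and vehicle groups, with points for livers, a bar for the mean and whiskers for the SD. The sum of the 3 pyrimidine genes spans 163 to 211 FPKM with vutiglabridin and 166 to 196 with semaglutide, against 127 to 168 in vehicle, while the tyrosine sum spans 2123 to 3179 with vutiglabridin, 1544 to 2212 with semaglutide and 1276 to 2112 in vehicle.

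Counts of called cell type markers are to be read against the shares of all genes, of which 6.53% rose and 8.78% fell with vutiglabridin and 14.3% rose and 12.7% fell with semaglutide. Between the drugs, 11.9% of all genes were higher and 12.6% lower with vutiglabridin. Of 17 hepatocyte markers in the table (18 listed), 6 rose and 0 fell with vutiglabridin, 7 rose and 0 fell with semaglutide, and 1 was higher and 1 lower between the drugs. Their sums were 56070.2 to 71437 FPKM in vutiglabridin, 57109 to 71356 in semaglutide and 49769.8 to 62064 in vehicle livers, and no hepatocyte marker in the table was at 0 in any library. Of 12 stellate cell markers 6 fell with vutiglabridin and 6 fell and 1 rose with semaglutide, with sums of 103 to 169 FPKM with vutiglabridin, 109 to 169 with semaglutide and 163 to 251 in vehicle. Of 12 macrophage markers tested 8 fell with vutiglabridin and 6 with semaglutide, with sums of 81.6 to 174 FPKM with vutiglabridin, 82.3 to 126 with semaglutide and 112 to 296 in vehicle, the highest of all, 295.7 FPKM, in vehicle replicate 7. Cholangiocyte markers summed to 74.9 to 199.7 FPKM with vutiglabridin, 98.7 to 295 with semaglutide and 159.7 to 347 in vehicle, and 2 of 6 tested fell with vutiglabridin and 0 with semaglutide. Of the other cell types, with few markers each, 1 endothelial marker of 9 rose with vutiglabridin, 2 of 4 T and NK cell and 1 of 3 B cell markers fell with it, and 2 endothelial markers rose and 1 fell with semaglutide. Neutrophil, red blood cell, adipocyte and acinar markers gave 0 calls of 9 tested with vutiglabridin, and with semaglutide 1 red blood cell marker, the 1 adipocyte marker (Cfd) and the 1 acinar marker tested fell. Between the drugs, 1 of 12 stellate cell markers was higher and 3 lower with vutiglabridin. Lower there were 2 of 12 macrophage, 1 of 6 cholangiocyte, 2 of 4 T and NK cell and 1 of 2 neutrophil markers. Of 9 endothelial markers 1 was higher and 1 lower, and 1 red blood cell marker and the acinar marker were higher. B cell and adipocyte markers gave 0 calls between the drugs. Without vehicle replicate 7, 20 of the 44 genes rose and 0 fell with vutiglabridin. The share of all genes was not counted in that fit, and leaving out 1 library does not test cell makeup. The part of cell makeup in the changes of the catabolic genes was not tested.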

How the data were processed

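RNA of 24 mouse liver samples was sequenced, and expression was deposited by the authors as 1 table of FPKM per gene, with no counts. Per the labels' protocols, RNA was purified on Qiagen RNeasy columns, made into stranded mRNA libraries (Illumina TruSeq) and sequenced in paired ends on a NovaSeq instrument. The submitters' processing notes name HISAT2, StringTie and DESeq2. Neither versions and parameters nor the genome build are stated there. All 14293 gene identifiers matched GENCODE M21 (GRCm38), from which coordinates were taken. From the FPKM, log2(FPKM + 1) was fitted for the 11562 genes that reached 0.5 FPKM in 8 or more samples, over all 24 samples in 1 model (limma 3.58.1 in R 4.3.3, with a mean-variance trend), and p-values were adjusted by Benjamini and Hochberg within each comparison at a threshold of 0.05. The fold changes understate those of genes with low values. The 44 genes were all reported, and further genes were named for the lowest p in each comparison (6 other pathway genes and 3 regulators, or fewer where fewer passed). A regulator and a motif are not reported here. The gene lists and markers were chosen with earlier results of these data known. Each gene's FPKM assumes that the library total is a fair scale, so TPM scaling, quantile normalization and median centring were tried, with other pseudocounts and filters, 2-group and robust fits, a GC content and exon length correction, a replicate block, an exact permutation test (two-sided) and leaving out each library. The steps of low FPKM values gave the implied depth. Figures and promoter searches used Python 3.11.15 with numpy 2.4.6, pandas 2.3.3 and matplotlib 3.10.9.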

Additional observations from a re-analysis of the deposited data

Results flagged for a closer look

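In 5 of the 132 groups of 8 values (44 genes in 3 groups), 1 liver lay farther from its nearest neighbour than Dixon's critical value at the 95% level allows. Chance alone flags about 1 in 20 groups, 6.6 of 132. Hpd was low in vutiglabridin replicate 3, at 916 FPKM, where the next liver had 1093 FPKM. Vehicle replicate 7 was low in Hgd, at 202.5 FPKM against a next value of 284 FPKM, and in Kynu, at 19.8 FPKM against a next value of 30.2 FPKM. Mccc2 was high in vehicle replicate 8, at 26.9 FPKM, where the next liver had 24.6 FPKM. Amt was high in vehicle replicate 3, at 28.4 FPKM, where the next liver had 22.9 FPKM.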

How the results depend on the processing

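Of 4884 values of the 44 genes under the alternatives, 4483 kept their direction and their side of the threshold, 205 no longer passed, 108 newly passed, 88 changed sign without passing under either setting and 0 reversed. Against 22 genes higher with vutiglabridin over vehicle, TPM scaling gave 14, quantile normalization 12 and leaving out single libraries 20 to 24. Against 0 lower, TPM scaling gave 1 and leaving out libraries 0 to 0. For semaglutide over vehicle, 5 genes were higher, against 3 under TPM scaling and 8 with median centring (1736 of all 11562 genes). The count was 9 after the GC content and exon length correction, 11 when that correction went with the replicate block, and 3 to 9 without single libraries. There 4 genes were lower, against 6 under TPM scaling, 8 after the GC content and exon length correction, 8 when it went with the replicate block, and 2 to 5 without single libraries. For vutiglabridin over semaglutide, 31 were higher, against 20 under TPM scaling, 19 under quantile normalization and 26 after the GC content and exon length correction. The count was 27 when that correction went with the replicate block, and 27 to 33 without single libraries. There 1 was lower, against 0 with no filter, with median centring, with only the 2 groups fitted, after the GC content and exon length correction alone or with the replicate block, and in the exact permutation test, and 0 to 1 without single libraries.

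Of the other pathway genes, 26 were higher with vutiglabridin over vehicle, against 11 under TPM scaling, 10 under quantile normalization and 16 to 30 without single libraries. There 0 were lower, against 1 with no filter, 5 under TPM scaling, 2 under quantile normalization and 0 to 1 without single libraries. Between the drugs 30 were higher, against 16 under TPM scaling, 18 under quantile normalization and 25 to 34 without single libraries, and 4 were lower, against 2 after the GC content and exon length correction, 2 when it went with the replicate block, and 3 to 4 without single libraries. With semaglutide over vehicle no alternative moved the 11 higher and 8 lower by over 1.5 times, with 9 to 13 and 7 to 8 without single libraries. The cause of these shifts was not tested.

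With the replicate number as a replicate block, 24 of the 44 genes were higher and 0 lower with vutiglabridin over vehicle. Over all 11562 genes 730 were higher and 993 lower there. For semaglutide over vehicle 4 were higher and 5 lower, where 1629 of all genes were higher and 1444 lower. For vutiglabridin over semaglutide 31 were higher and 1 lower, where 1345 of all genes were higher and 1403 lower. The replicate numbers share no stated animal, litter or day. Same-numbered livers correlated between −0.247 and 0.286, over 0.1 in 11 of 24 pairs. A liver was most like its own number in 8 of 48 tries. Depth limits genes with low values most in vutiglabridin replicate 7, where 1413 genes were listed at 0.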
